A study of Mus musculus with 6 samples.

Results

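The 10 genes described here encode the sensors, the adaptor, the caspases and the pore-forming gasdermin of mouse inflammasomes. They were taken from the deposited gene table by symbol: the sensors Nlrp3, Nlrp1b, Nlrc4, Naip2, Naip5 and Aim2, the adaptor Pycard, the caspases Casp1 and Casp4, and the gasdermin Gsdmd. All 10 were found among the 54532 genes of the table, and all 10 were among the 14883 genes that passed the filter on low counts and were tested. The study cocultured activated CD8T cells from mouse spleen with peritoneal macrophages for 24 hr and then sequenced RNA of the CD8T cells, with 3 samples per group. In the control group the macrophages had received 10 ng/mL IFN-γ for 12 hr and no DB2313, and in the DB2313 group they had also received 14 nM DB2313, which inhibits the transcription factor Spi1. The genotype, age and number of animals behind each sample are not given in the sources used here, and neither is whether the 3 samples of a group were separate cultures, so the p-values measure only the spread between these samples. GEO's labels name the cocultured cells as DC cells and the paper as macrophages, but the division by DB2313 is the same in both.

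Inflammasomes are protein platforms that assemble in the cytosol when a sensor detects a microbial product or cell damage. The sensor recruits the precursor of caspase 1, either directly or through the adaptor ASC encoded by Pycard, and the active caspase cleaves the precursors of the cytokines IL-1β and IL-18 and cleaves gasdermin D, whose amino-terminal part then forms pores in the plasma membrane and can kill the cell by pyroptosis. Macrophages and other myeloid cells are the best known users of this pathway, although lymphocytes express some of its parts.

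RNA of other cells was counted in all 6 libraries, whose totals ranged from 16611975 to 18596217 counts. The 20 T cell markers were all counted and took 0.359% to 0.365% of all counts in the control libraries and 0.579% to 0.585% with DB2313. All 20 macrophage markers were counted too, with 1.14% to 1.17% in the control libraries and 0.427% to 0.437% with DB2313, and 17 of them were lower and 3 higher in the DB2313 group. For example, Lyz2, a lysozyme of myeloid cells, was at 7702 ± 133 and 2084 ± 36.6 CPM, and Cd3e, a chain of the T cell receptor complex, at 135.9 ± 4.87 and 169.5 ± 15.3 CPM (SD, n = 3 each). Lyz2 fell by more than the median macrophage marker (log2 fold change -1.89 against -1.18), and Cd3e had the smallest rise of the 20 T cell markers, whose log2 fold changes ran from 0.32 to 0.74 with a median of 0.61. CPM are counts relative to the library size after TMM scaling, which takes the bulk of the genes as unchanged. The 10 neutrophil markers went from 0.198% to 0.199% of the counts down to 0.093% to 0.0953%, and the 10 dendritic cell markers, of which Siglech had 0 counts in every library, from 0.370% to 0.375% down to 0.269% to 0.272%. With TMM scaling, 8 neutrophil markers were lower and 2 higher (median log2 fold change -1.62, from -3.92 to 1.39). Of the 9 tested dendritic cell markers, 7 were lower and 1 higher (median -0.44, from -3.54 to 0.36). Ccl22, at 2190 CPM in the control group and 1188 CPM with DB2313, weighs most in the dendritic share. The part of these shifts in the results on inflammasome genes was not tested. In RNA of a mixed culture, fewer cells of a type and less RNA per cell cannot be told apart.

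With TMM scaling, all 10 inflammasome genes were lower in the DB2313 group, whereas with libraries scaled to the counts of the macrophage markers none was lower and 9 were higher, beside 1.36% of all tested genes lower and 94.3% higher. That scale rests largely on Lyz2, which held 64.2% to 64.8% of the marker counts in the control libraries and 49.6% to 49.9% with DB2313. Scaled to the other 19 macrophage markers, 1 of the 10 was lower (Nlrp3) and 6 were higher, beside 2.94% and 87.2% of all tested genes. By the quasi-likelihood test of edgeR, adjusted by Benjamini-Hochberg over all tested genes, 10 of the 10 fell at an adjusted p below 0.05, against 24.6% of all tested genes. None of the 10 rose, against 20.8% of all tested genes; without adjustment the number was also 0, and DESeq2 called 10 lower and 0 higher. The log2 fold changes ran from -1.63 in Nlrp3 to -0.25 in Gsdmd, with a median of -0.57 beside 0.02 over all tested genes. In 3 of the 10, Nlrp3, Nlrc4 and Nlrp1b, the fall exceeded 2-fold, against 5.3% of all tested genes. For each of the 10 genes the control libraries were all higher than any DB2313 library, which held in the same direction for 27.5% of all tested genes.

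**Figure D1:**
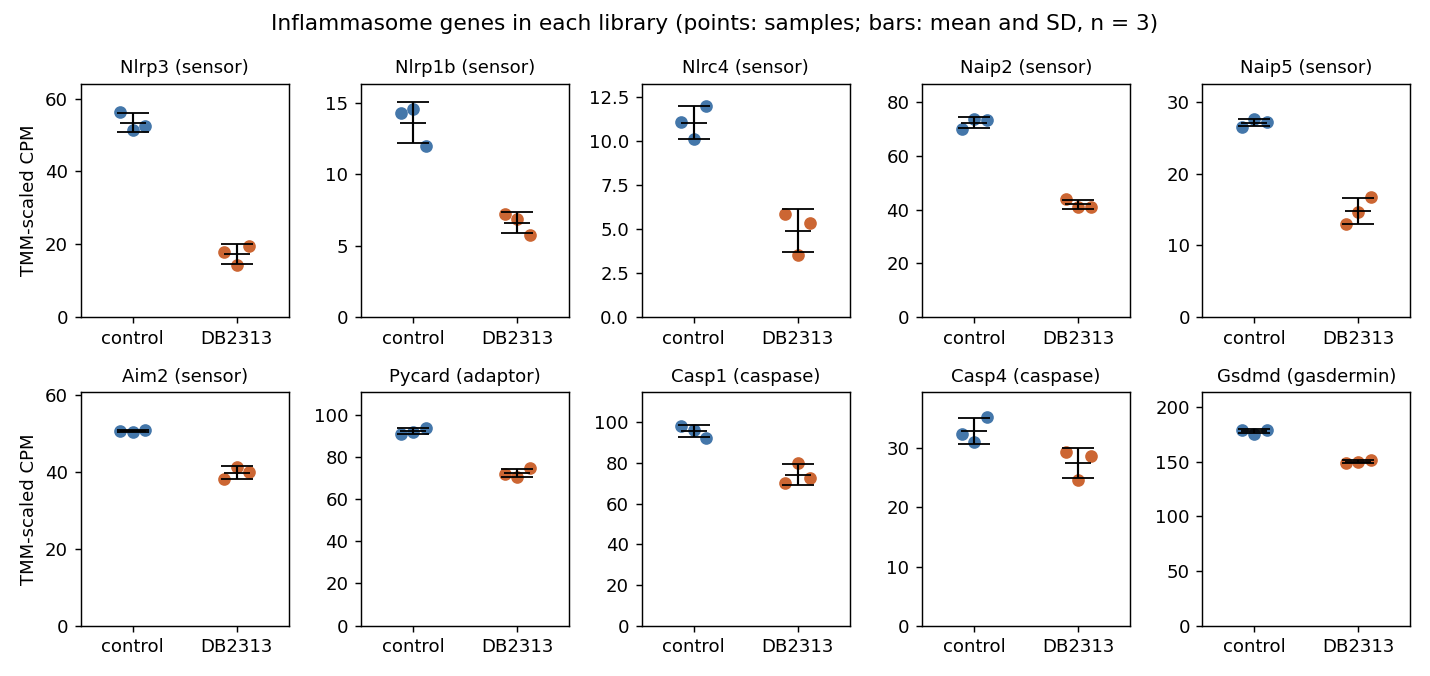
Level of each inflammasome gene in the 6 libraries, in CPM scaled by TMM on axes that start at 0. Points are samples, and bars give the mean and SD of the 3 samples of a group. In every panel the control points lie above the DB2313 points, with the largest relative fall for Nlrp3 (53.4 against 17.3 CPM) and a small one for Gsdmd (178.1 against 150.2 CPM).

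The NOD-like receptor sensors fell most. Nlrp3 (ENSMUSG00000032691, chr11:59541568-59566956 of GRCm38, plus strand) encodes the sensor that responds to potassium efflux and many kinds of cell damage. It was at 56.3, 51.4 and 52.6 CPM in the control libraries and at 17.9, 14.4 and 19.6 CPM with DB2313. The groups were far apart, and no DB2313 library came near a control library. In edgeR Nlrp3 changed by -1.63 on the log2 scale (standard error 0.09, adjusted p = 1.35e-13).

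Nlrc4 (ENSMUSG00000039193, chr17:74425438-74459142, minus strand) encodes the partner that NAIP proteins activate. Its levels were 11.1, 10.1 and 11.97 CPM in the control libraries and 5.85, 3.52 and 5.33 CPM with DB2313. DB2313 replicate 2 was the lowest of its group, and without it the log2 fold change of Nlrc4 was -0.98 in place of -1.17 (standard error 0.16, adjusted p = 1.53e-06 from edgeR). Nlrp1b (ENSMUSG00000070390, chr11:71153102-71230733, minus strand) encodes a sensor that is activated when pathogen proteases cleave it. The control libraries had 14.3, 14.6 and 11.97 CPM of it and the DB2313 libraries 7.20, 6.86 and 5.76 CPM. Nlrp1b fell by 1.05 on the log2 scale (standard error 0.13, adjusted p = 3.81e-07 from edgeR), just past 2-fold, and it was at -0.95 with library size scaling, at -0.98 with upper quartile scaling, at -0.99 without control replicate 2 and at -0.95 without DB2313 replicate 3. Both genes were thinly counted, with 60 to 258 counts per library.

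The NAIP proteins bind bacterial ligands, the rod protein of type III secretion systems in the case of Naip2 and flagellin in that of Naip5, and hand the signal to Nlrc4. Naip2 (ENSMUSG00000078945, chr13:100144063-100202092, minus strand) was at 70.1, 73.8 and 73.5 CPM in the control libraries and at 44.01, 41.1 and 41.1 CPM with DB2313. Naip5 (ENSMUSG00000071203, chr13:100211739-100246323, minus strand) was at 26.5, 27.6 and 27.2 CPM and at 13.0, 14.7 and 16.7 CPM. The 2 neighbouring genes thus showed falls of like size, with log2 fold changes of -0.78 for Naip2 (95% interval -0.90 to -0.67) and -0.88 for Naip5 (-1.07 to -0.69), and adjusted p-values of 4.06e-11 and 3.30e-08 from edgeR. Of all 100-base windows of the principal transcript, 4.55% of Naip2 and 16.2% of Naip5 also occur in transcripts of other NAIP genes, so reads could have been divided among these copies. For Nlrp1b the share was 0.0743%, with its paralog Nlrp1a, and it was 0% for Nlrp3 and Nlrc4.

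Promoters of the 3 genes that fell by more than 2-fold are printed here because Spi1, the target of DB2313, binds sites with the core GAGGAA. Each window covers 250 bases before and 50 after a RefSeq transcription start (GRCm38.p6), read 5′ to 3′ on the strand of the gene, and capitals mark GAGGAA or its reverse complement TTCCTC. Nlrp3 has 2 such starts, an upstream one at the annotated gene start (chr11:59541319-59541618) and a downstream one (chr11:59542436-59542735). The Nlrp1b window is chr11:71230684-71230983 on the minus strand, and that of Nlrc4 is chr17:74459059-74459358 on the minus strand.
Nlrp3, downstream start: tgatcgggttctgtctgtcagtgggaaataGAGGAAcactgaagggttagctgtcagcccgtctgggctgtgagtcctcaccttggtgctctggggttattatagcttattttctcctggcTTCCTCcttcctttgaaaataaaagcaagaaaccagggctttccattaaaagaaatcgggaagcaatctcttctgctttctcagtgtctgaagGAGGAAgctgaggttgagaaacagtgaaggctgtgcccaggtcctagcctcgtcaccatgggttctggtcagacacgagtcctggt
Nlrp3, upstream start: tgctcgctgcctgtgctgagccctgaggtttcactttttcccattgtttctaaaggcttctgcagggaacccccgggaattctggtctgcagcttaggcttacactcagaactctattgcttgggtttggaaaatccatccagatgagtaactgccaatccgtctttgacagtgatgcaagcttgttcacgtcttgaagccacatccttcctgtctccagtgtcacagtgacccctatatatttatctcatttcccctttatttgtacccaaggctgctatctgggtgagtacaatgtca
Nlrp1b: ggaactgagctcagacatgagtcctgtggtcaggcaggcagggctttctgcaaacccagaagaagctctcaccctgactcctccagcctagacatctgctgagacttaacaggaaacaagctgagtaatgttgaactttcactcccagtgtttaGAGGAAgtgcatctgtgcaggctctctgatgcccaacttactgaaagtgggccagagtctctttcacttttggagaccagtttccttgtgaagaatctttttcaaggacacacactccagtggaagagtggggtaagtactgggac
Nlrc4: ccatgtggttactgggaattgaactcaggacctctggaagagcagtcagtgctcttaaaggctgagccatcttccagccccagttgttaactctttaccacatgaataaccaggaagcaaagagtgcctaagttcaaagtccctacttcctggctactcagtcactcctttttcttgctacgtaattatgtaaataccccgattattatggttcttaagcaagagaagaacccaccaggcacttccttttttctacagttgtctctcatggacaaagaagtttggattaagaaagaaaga

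The downstream Nlrp3 window held the core 3 times, beginning 220, 129 and 36 bases before the start, and the upstream one held none. Nlrp1b held it once, beginning 96 bases before the start, a second Nlrp1b window (chr11:71201407-71201706) held none, and the Nlrc4 window held none. RefSeq windows were matched for 9 of the 10 genes, all but Gsdmd. Among their 12 windows, 5 held GAGGAA on either strand, those of Nlrp3, Nlrp1b, Aim2, Pycard and Casp1, against 28.3% of the 32851 windows of all genes. Genes with a small fall (Aim2, Pycard and Casp1) and genes with a large one (Nlrp3 and Nlrp1b) both held it, while Nlrc4, Naip2, Naip5 and Casp4 had no match in these windows. The core GAAANNGAA of interferon regulatory factors was found in the Naip2 window alone, against 8.56% of all windows, and the core TTCNNNGAA of Stat proteins in 0 of the 12, against 8.3%. These letters do not overlap with GAGGAA in any of the windows, and a match describes the letters only.

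Aim2 fell by much less than the NOD-like receptors. Aim2 (ENSMUSG00000037860, chr1:173350879-173466040, plus strand) encodes a sensor of double-stranded DNA in the cytosol. It was at 50.4, 50.3 and 50.7 CPM in the control libraries and at 38.0, 41.3 and 39.9 CPM with DB2313. The control libraries were nearly equal, and the DB2313 libraries were all lower. In edgeR Aim2 changed by -0.35 on the log2 scale (standard error 0.06, adjusted p = 5.12e-05), and its 95% interval of -0.47 to -0.22 did not overlap that of any of the 5 NOD-like receptor genes.

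Pycard (ENSMUSG00000030793, chr7:127989708-127993867, minus strand) encodes ASC, which joins sensors with a pyrin domain to caspase 1. The control libraries had 90.8, 91.7 and 93.8 CPM and the DB2313 libraries 71.9, 70.6 and 74.6 CPM. The control libraries were all higher, and the log2 change was -0.35 in edgeR (standard error 0.05, adjusted p = 9.61e-07). Pycard exons overlap Gm45205 on the opposite strand over 485 bases, 12.8% of the exonic length of Pycard, and Gm45205 had 0 counts in every library. Strandedness is not given, so the 0 does not show whether reads in the shared bases were counted for Pycard.

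The caspases fell by little. Casp1 (ENSMUSG00000025888, chr9:5298517-5307265, plus strand) encodes the protease that matures IL-1β and IL-18. It was at 98.3, 96.3 and 92.4 CPM in the control libraries and at 70.3, 80.0 and 72.6 CPM with DB2313. DB2313 replicate 2 was the highest of its group and still lay below every control library. In edgeR Casp1 changed by -0.37 on the log2 scale (standard error 0.05, adjusted p = 2.01e-06).

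Casp4 (ENSMUSG00000033538, chr9:5308828-5336783, plus strand), the next gene downstream, encodes the mouse caspase that binds cytosolic lipopolysaccharide and cleaves gasdermin D. The control libraries were at 32.4, 31.0 and 35.2 CPM and the DB2313 libraries at 29.3, 24.6 and 28.8 CPM. The groups were close but did not overlap. Its log2 fold change of -0.25 (standard error 0.08, adjusted p = 0.012 from edgeR) was lost in 4 fits that kept the direction. It was at -0.18 without DB2313 replicate 2 (adjusted p = 0.0903), at -0.20 without control replicate 3 (0.0769), at -0.16 with library size scaling (0.105) and at -0.19 with upper quartile scaling (0.0548), and over the 14 of 16 alternatives in which it was lower its adjusted p in edgeR or DESeq2 ran from 1.14e-09 to 0.105. In the other 2, scaled to macrophage markers with and without Lyz2, it was higher.

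Gsdmd (ENSMUSG00000022575, chr15:75862327-75867408, plus strand) encodes gasdermin D, the pore former that both caspases activate. It was the most counted of the 10 genes, at 179.2, 175.9 and 179.1 CPM in the control libraries and 148.9, 149.8 and 151.9 CPM with DB2313. Replicates differed by less than the groups did. Its log2 fold change of -0.25 was as small as that of Casp4 but better determined (standard error 0.04, adjusted p = 4.01e-06 from edgeR). The 95% intervals of Gsdmd, Casp4, Casp1, Pycard and Aim2 reached down to -0.47 at the lowest, and those of Nlrp3, Nlrc4, Nlrp1b, Naip5 and Naip2 reached up to -0.67 at the highest.

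**Figure D2:**
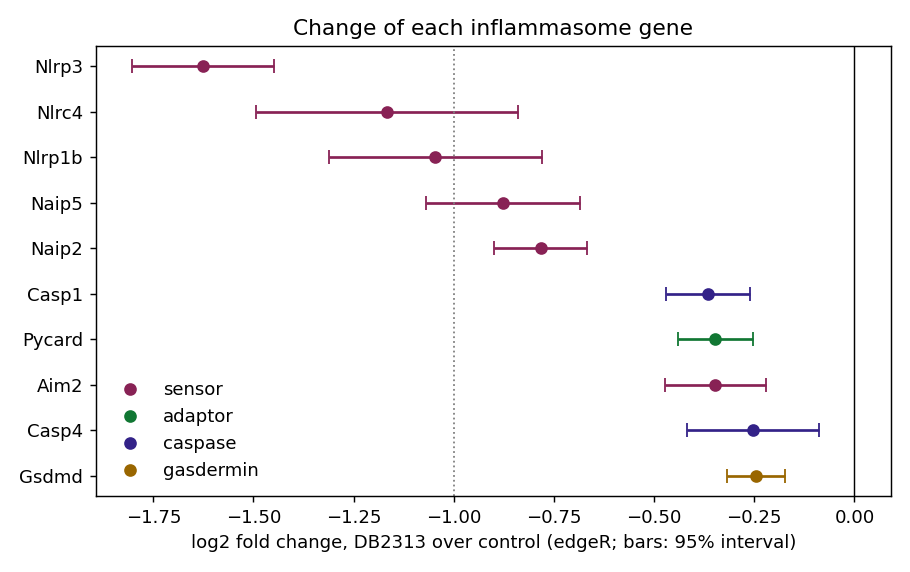
Log2 fold change of DB2313 over control for each of the 10 genes in the edgeR fit with TMM scaling, with 95% intervals and colours for the role of the protein. The dotted line marks a 2-fold fall. The 5 NOD-like receptor genes lie between -1.63 and -0.78, apart from the other 5 genes, which lie between -0.37 and -0.25; with scaling to the macrophage markers all 10 shift upwards and 9 change sign, or 7 with Lyz2 left out of these markers.

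Counts relative to Gsdmd within each library were compared next, because no scaling factor enters such a ratio. Gsdmd was chosen as the reference after its counts were seen. Nlrp3 had 314.2, 292.4 and 293.7 counts per 1000 counts of Gsdmd in the control libraries and 120.3, 95.9 and 128.8 with DB2313. The ratio of Nlrp3 was lower in every DB2313 library, by 1.39 on the log2 scale, and this difference between the genes holds under any scaling (p = 0.1 by a two-sided exact permutation test, and 3 against 3 samples allow no smaller p). Naip2 had 407 ± 14.8 and 280.2 ± 13.4 per 1000, and Naip5 had 152.5 ± 4.52 and 98.3 ± 11.3 (SD, n = 3 each). The ratios of Nlrp1b, Nlrc4, Aim2 and Pycard also lay lower in every DB2313 library, but for Aim2 and Pycard the difference was only -0.10 on the log2 scale. For Casp1 the groups overlapped, with 537.2 ± 18.4 and 494.6 ± 34.2 per 1000 (SD, n = 3 each, exact permutation test, p = 0.2). The Casp4 ratio was 184.6 ± 10.8 in the control group and 183.4 ± 16.9 with DB2313 (SD, n = 3 each), a log2 difference of -0.012 that ranged from -0.064 to 0.066 with each library left out in turn (exact permutation test, p = 0.9).

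**Figure D3:**
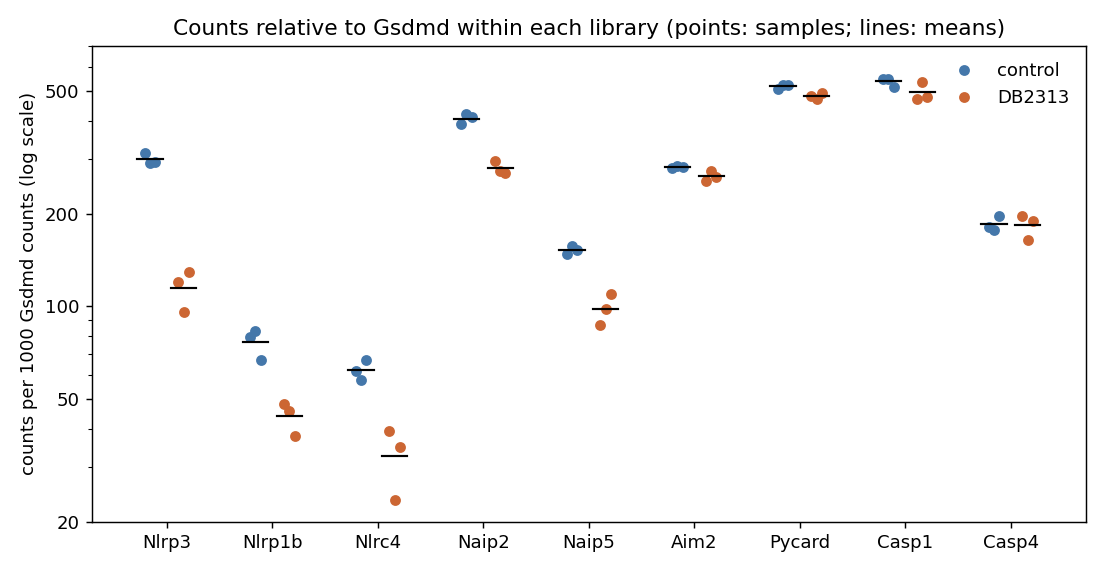
Counts of 9 genes per 1000 counts of Gsdmd in the same library, on a log axis. Points are the 3 samples of each group and lines their means. The points of the 5 NOD-like receptor genes separate widely (Nlrp3 from 300.1 to 115 on average), whereas those of Casp4 overlap at 184.6 and 183.4.

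Levels of different genes were compared as CPM per kb of the deposited gene length. In the control group Gsdmd was highest at 74.9 ± 0.797 CPM per kb, followed by Casp1 at 63.9 ± 1.98 and Pycard at 24.2 ± 0.403 (SD, n = 3 each). Naip2 (15.0 ± 0.432), Aim2 (14.4 ± 0.0622) and Nlrp3 (13.2 ± 0.627) came next, and then Casp4 (8.86 ± 0.583) and Naip5 (5.22 ± 0.106). Nlrc4 (2.34 ± 0.196) and Nlrp1b (2.16 ± 0.228) were the lowest. The libraries of neighbours in this order did not overlap, except those of Naip2 with Aim2 and of Nlrc4 with Nlrp1b. Per kb, Gsdmd, Casp1 and Pycard were thus each above every sensor.

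With DB2313 and the deposited length the top of the order was again Gsdmd at 63.2 ± 0.643, Casp1 at 49.6 ± 3.38 and Pycard at 19.0 ± 0.545 CPM per kb (SD, n = 3 each). Nlrp3 was at 4.26 ± 0.656, below Casp4 at 7.43 ± 0.689, and Aim2 (11.3 ± 0.475) was above Naip2 (8.68 ± 0.346). Of the summed CPM per kb of the 10 genes, Nlrp3 made up 5.88% ± 0.234 in the control group and 2.53% ± 0.399 with DB2313, and Gsdmd 33.4% ± 0.259 and 37.5% ± 0.410 (SD, n = 3 each). Several places in the order depend on the length used. Per kb of the principal GENCODE transcript, which is 1435 bases for Casp4 where the deposited length is 3710, Casp4 was at 22.9 CPM per kb in the control group, below Pycard (24.2), and at 19.2 with DB2313, where Pycard was at 19.0. With these lengths Casp4 was above Nlrp3 (13.3) and Aim2 (17.8) above Naip2 (15.0) already in the control group, and Nlrp3 held the seventh place in both groups.

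Other genes of the pathway were followed in lists with TMM scaling, by which 28 of their 65 tested genes fell and 15 rose, beside 24.6% and 20.8% of all tested genes. Scaled to the macrophage markers 1 fell and 60 rose (1.36% and 94.3% of all tested genes), and scaled to the T cell markers 57 fell and 4 rose (77.6% and 1.1%), so each direction below holds for TMM, and counts near the TMM shares of all genes are no result about a list. Of the other sensors that nucleate a caspase 1 platform, 6 of the 8 listed were tested, and 3 fell and none rose. The 3 were Nlrp1a, with a log2 fold change of -1.29, Mefv, which encodes pyrin, with -1.21, and Naip6, with -1.10 (standard errors 0.17, 0.15 and 0.12, adjusted p = 1.43e-06, 4.94e-07 and 3.80e-08 from edgeR). The other 3 had a mean of at most 1.49 CPM in either group, and no change was detectable at this depth. The sensors that fell thus included genes close to the members in sequence (Naip6 and Nlrp1a) and 1 that is not (Mefv).

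Il1b and Il18, whose products caspase 1 matures, were also lower, as were the related Il1a, Il1rn and Il18bp. Of the 11 listed IL-1 family cytokines and antagonists, 7 are in the table and 5 were tested, and all 5 of these fell, with a median log2 fold change of -1.26. Il1b was at 11.9, 12.7 and 14.5 CPM in the control libraries and at 3.25, 2.52 and 3.42 CPM with DB2313, so it fell by 2.08 on the log2 scale (standard error 0.15, adjusted p = 5.56e-11 in edgeR). Il1a had a log2 fold change of -1.45 and Il18 one of -1.26 (standard errors 0.22 and 0.21, adjusted p = 6.77e-06 and 2.08e-05 from edgeR). Both were thinly counted, with 32 to 118 counts per library. Reads of Il1a could be shared with Gm14023 on the opposite strand, which overlaps 11.2% of its exonic length. The antagonists Il1rn and Il18bp, at 123.2 and 137.7 CPM in the control group, fell by 0.995 and 0.42 on the log2 scale (standard errors 0.05 and 0.04). Per kb of the deposited length, they were at 22.3 and 45.5 CPM in the control group, against 6.83 for Il1b, 5.57 for Il18 and 2.61 for Il1a. Among the 8 IL-1 family receptors, 3 fell and 3 rose, with a median of 0.13, beside 24.6% and 20.8% of all tested genes. Il1r2, the decoy receptor, was at -1.04 (standard error 0.06) and Sigirr, an inhibitory receptor, at 0.45 (standard error 0.05).

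Of the 8 other caspases listed, 7 were tested, of which 3 fell and 2 rose, beside 24.6% and 20.8% of all tested genes. Casp8, the initiator of death receptor signalling, was at 0.10 (standard error 0.04). The adjusted p of 0.0371 for Casp8 was not below 0.05 with DESeq2, without a filter, with the replicate block or when 1 of 4 libraries was left out. Of the other gasdermins and Ninj1, which ruptures the membrane of dying cells, only Gsdme and Ninj1 had enough counts to be tested among 10 genes in the table. Both fell, Ninj1 from 136.7 ± 8.95 to 79.9 ± 1.37 CPM (SD, n = 3 each), and their log2 fold changes were -0.77 each (standard errors 0.05 for Ninj1 and 0.15 for Gsdme).

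Genes that license or activate inflammasomes mostly fell or were not called. Of 12 listed, 11 were tested, 6 fell and 1 rose (median -0.17 on the log2 scale), beside 24.6% and 20.8% of all tested genes. Irf8, a myeloid transcription factor that acts on NAIP genes, went from 333.2 ± 4.81 to 157.6 ± 2.996 CPM (SD, n = 3 each), a log2 fold change of -1.08 (standard error 0.03, adjusted p = 1.10e-17 from edgeR). Kcnk6, a potassium channel linked to Nlrp3, was at -1.07 (standard error 0.06), and Gbp2, an interferon-induced GTPase, at -0.24 (standard error 0.03). Irf1, at 634.6 ± 13.5 and 632.4 ± 14.3 CPM (SD, n = 3 each), was at -0.0049 on the log2 scale (95% interval -0.071 to 0.061), and its sign turned with library size scaling (0.089), upper quartile scaling (0.059) and scaling to the macrophage markers, and without control replicate 3 or DB2313 replicate 3. Of 6 listed genes that restrain inflammasomes, 4 were tested, and in edgeR none fell or rose (0 with DESeq2 as well, and 2 at an unadjusted p below 0.05), with log2 fold changes from -0.11 to 0.019. Dpp8 was at -0.088 and Tnfaip3 at -0.11 (standard errors 0.06 and 0.05), and DPP proteins hold Nlrp1b inactive. Without DB2313 replicate 3 both Dpp8 (-0.18) and Tnfaip3 (-0.13) fell, and without control replicate 3 Tnfaip3 did (-0.14).

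**Figure D4:**
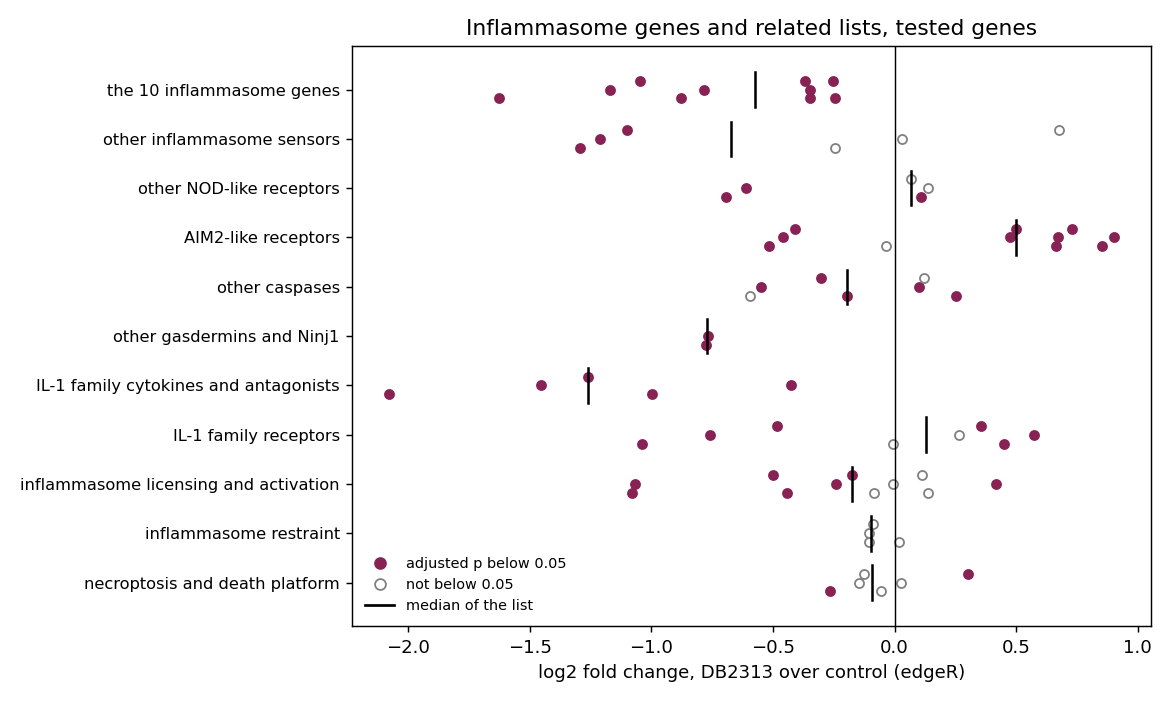
Log2 fold change of DB2313 over control for the tested genes of each list, in the edgeR fit with TMM scaling. Points are genes, filled where the adjusted p is below 0.05, and black lines are medians of the lists. The inflammasome genes, the other sensors and the IL-1 family cytokines have medians of -0.57, -0.67 and -1.26, and the AIM2-like receptors one of 0.50.

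The direction of the inflammasome genes was then set against that of the macrophage and T cell markers. No fit was scaled to the neutrophil or dendritic cell markers, whose median log2 fold changes were -1.62 and -0.44. Relative to the median of the 20 macrophage markers, which was -1.18, Nlrp3 was at -0.45, Nlrc4 at 0.010 and Nlrp1b at 0.13 on the log2 scale. Naip5 and Naip2 were at 0.30 and 0.39, and the other 5 genes between 0.81 and 0.93. The falls of Nlrc4 and Nlrp1b were thus close to the median fall of macrophage markers, whereas those of Aim2, Pycard, Casp1, Casp4 and Gsdmd were smaller. This depends on the markers taken. Aim2, Pycard and Casp1 (log2 fold changes -0.35, -0.35 and -0.37) lay nearer the dendritic cell median of -0.44 than Nlrc4 (-1.17) and Nlrp1b (-1.05) did. The macrophage markers themselves ran from -2.16 to 1.44, and all 10 genes lay within that range. Relative to the median of the 20 T cell markers, which was 0.61, all 10 genes lay lower, from -2.23 in Nlrp3 to -0.85 in Gsdmd. In fits scaled to the summed counts of the T cell markers all 10 were lower, with 77.6% of all tested genes lower. Of the 10, 5 were lower by more than 2-fold there. The share of all tested genes past 2-fold was not counted for that scaling, so the 5 are no result about these genes. Scaled to the macrophage markers, Nlrp3 was at -0.12 (standard error 0.09, adjusted p = 0.24 from edgeR, over all 16 alternatives 2.76e-93 to 0.24) and the other 9 were higher, by 0.34 in Nlrc4 to 1.26 in Gsdmd. Without Lyz2 among these markers, Nlrp3 was at -0.62 (standard error 0.09, adjusted p = 1.93e-06 from edgeR), Nlrc4 at -0.16 (adjusted p = 0.341), Nlrp1b at -0.04 (0.758) and Naip5 at 0.13 (0.209), and the other 6 were higher, by 0.22 in Naip2 to 0.76 in Gsdmd. The median of all tested genes was -0.57 scaled to the T cell markers, 1.53 scaled to the macrophage markers and 1.02 without Lyz2.

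**Figure D5:**
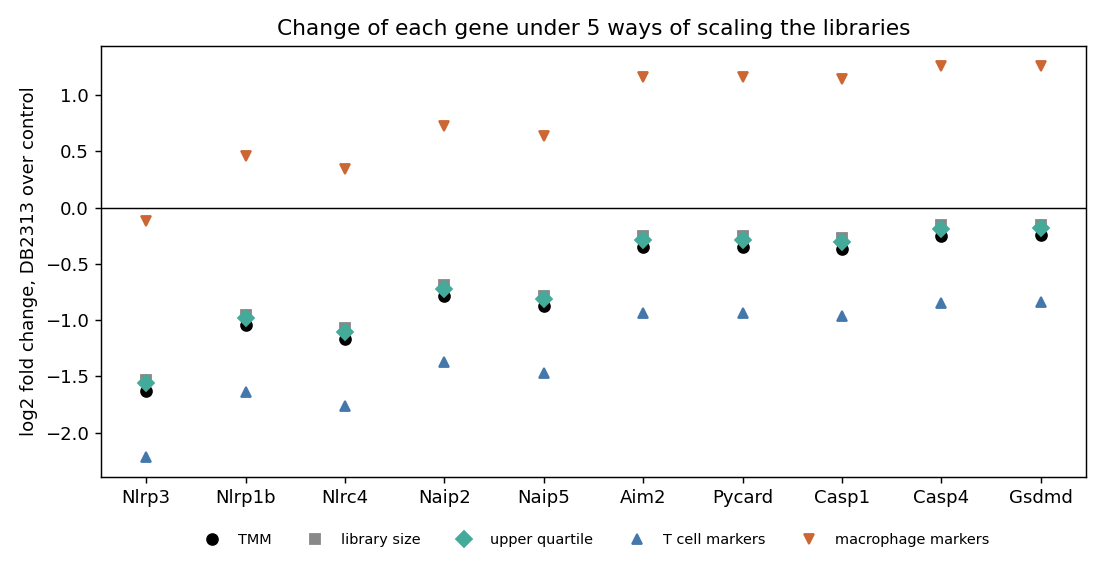
Log2 fold change of DB2313 over control for each of the 10 genes under 5 ways of scaling the libraries. Each symbol is a scaling, which shifts all genes alike: with T cell markers all points lie below 0, with all macrophage markers, Lyz2 included, only Nlrp3 does (-0.12), and the distance between Nlrp3 and Gsdmd stays.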

How the data were processed

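Counts were taken from RNA-seq of CD8T cells cocultured with macrophages, 3 samples per group. The authors deposited raw counts per gene, without normalization, together with gene lengths and coordinates. Their paper names LifeScope for alignment and counting, whereas the submitters' processing notes name CASAVA 1.8, HISAT2 2.0.5 and featureCounts 1.5.0-p3. The genome build, read filters, strandedness and treatment of reads that match several genes are not given in the sources used here. Of 54409 genes shared with GENCODE M21 (GRCm38), 98.3% had the same coordinates, as had all 10 genes described here.

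Genes were tested in R 4.3.3 with edgeR 4.0.16 (filterByExpr, TMM, glmQLFit, glmQLFTest), Benjamini-Hochberg adjusted over all tested genes, at an adjusted p of 0.05. Standard errors came from the fitted change and its F statistic. The common biological coefficient of variation was 4.67%. Replicates differed by a chi-square per gene of 2.48 to 3.81 within groups, so none was a copy of another. Scripts were tested on simulated counts in which few genes changed, equally up and down. That test does not bear on how the libraries should be scaled.

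The alternatives were DESeq2 1.42.0, 5 other scalings, 2 other filters, the block, protein-coding genes and leaving out each sample; the scaling without Lyz2 and the lengths of principal transcripts were chosen after seeing the data. The genes and lists were chosen with earlier results of these data known. Named genes are the 10, Lyz2 and Cd3e, and from each pathway list those that changed by more than 2-fold and the 2 most counted, of which 1 is not reported here; others named in the closing section were chosen after their values were seen. A count of 0 allows up to 3 counts, 1.81e-05% of the smallest library, for counting error only.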

Additional observations from a re-analysis of the deposited data

How the results depend on the processing

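With no replicate block, all 10 inflammasome genes fell at an adjusted p below 0.05 and 3 by more than 2-fold, and with the replicate block the counts were again 10 and 3, while over all tested genes the block gave 3525 lower and 2912 higher in place of 3667 and 3096. Same-numbered samples did not deviate together (correlations from -0.0039 to 0.019), and not every sample correlated best with its own number, so the numbers were not taken as pairs. Of 160 comparisons of a single inflammasome gene with its value under an alternative, 137 kept the direction and the side of the threshold, 7 lost the call and 16 turned, all 16 with libraries scaled to macrophage markers. With all of these markers, the log2 fold changes were 0.46 for Nlrp1b, 0.34 for Nlrc4, 0.73 for Naip2, 0.63 for Naip5, 1.16 for Aim2, 1.16 for Pycard, 1.14 for Casp1, 1.26 for Casp4 and 1.26 for Gsdmd. Without Lyz2 they were 0.22 for Naip2, 0.13 for Naip5, 0.66 for Aim2, 0.66 for Pycard, 0.64 for Casp1, 0.75 for Casp4 and 0.76 for Gsdmd. Of the 7 lost calls, 4 were those of Casp4, 1 was that of Nlrp3 with all macrophage markers, and 2 were those of Nlrp1b and Nlrc4 without Lyz2. Scaling to all macrophage markers gave 0 lower and 9 higher inflammasome genes, 0 lower by more than 2-fold, 1 lower and 60 higher genes of the other lists, and 202 lower and 14029 higher genes of all those tested, since it shifts every gene by the same amount. Without Lyz2 the numbers were 1 lower and 6 higher, 0 lower by more than 2-fold, 1 lower and 51 higher of the other lists, and 438 lower and 12976 higher of all tested. Scaling to the T cell markers gave 5 inflammasome genes lower by more than 2-fold, 57 lower and 4 higher genes of the other lists, and 11547 lower and 164 higher genes in all. With this scaling the median of all tested genes was -0.57, and their share past 2-fold was not counted. Library size scaling gave 4931 higher genes in all, against 3096 with TMM, or 19.2% lower and 33.1% higher of those tested, and upper quartile scaling gave 20.8% and 29.0%, where TMM gave 24.6% and 20.8%. With each sample left out in turn, 9 to 10 inflammasome genes fell, beside 21.5% to 23.1% of all tested genes. Of the inflammasome genes, 2 to 3 fell by more than 2-fold, and the share of all tested genes that did was not counted in these fits. The lowest counts, of Nlrc4 with 60 in a library, limit how well its fall is known.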

Other observations

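The AIM2-like receptors, the family that Aim2 belongs to by sequence, mostly rose with TMM scaling, while Aim2 fell. Scaled to the macrophage markers, Aim2 and all 11 tested receptors rose, which is near the 94.3% of all tested genes that did. Scaled to the T cell markers Aim2 and 6 of the 11 fell and 4 rose, beside 77.6% and 1.1% of all tested genes. Of 15 listed symbols, 11 are in the table and were tested. Of these, 7 rose and 3 fell with TMM (median 0.50 on the log2 scale), beside 20.8% and 24.6% of all tested genes. Ifi203 and Ifi209, the most counted, went from 269.5 ± 8.66 to 380.6 ± 16.3 CPM and from 217.1 ± 5.84 to 345.5 ± 8.12 CPM (SD, n = 3 each), with log2 fold changes of 0.50 and 0.67 (standard errors 0.04 and 0.03). The 3 that fell, named after their values were seen, were Ifi204 (-0.46), Ifi205 (-0.41) and Ifi207 (-0.52). Reads of the family are uncertain, since up to 56.9% of the 100-base windows of a member, in Ifi211, also occur in other genes, and 17.9% in Ifi209.

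With TMM scaling, 2 of 5 other NOD-like receptors fell and 1 rose, beside 24.6% and 20.8% of all tested genes. Scaled to the T cell markers all 5 fell, beside 77.6% of all tested genes, and scaled to the macrophage markers all 5 rose, beside 94.3%. The most counted, Nlrc5, an activator of MHC class I genes, rose by 0.11 on the log2 scale (standard error 0.03), a call lost without DB2313 replicate 1 (0.089), and Nod1 was at 0.069 (standard error 0.06, adjusted p = 0.346 from edgeR). Of 6 genes of necroptosis and its platform, 1 rose and 1 fell, which is near those TMM shares: Zbp1, a sensor of nucleic acids in the Z form, from 445.6 ± 4.50 to 549.3 ± 6.40 CPM, and Cflar, an inhibitor of caspase 8, from 191.6 ± 5.96 to 159.4 ± 11.2 CPM (SD, n = 3 each). The 8 B cell markers took 0.0303% to 0.0304% of the control counts and 0.0446% to 0.0453% with DB2313.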
